A study of Mus musculus with 8 samples.

Results

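The genes described here are 8 Fc receptor and Fc receptor-like genes of mouse splenic follicular B cells: Fcer2a, Fcgr2b, Fcrl1, Fcrla, Fcmr, Fcgrt, Fcer1g and Fcamr. They were chosen by gene symbol, each symbol matched 1 Ensembl identifier on GRCm38, and they are 8 of the 43629 genes in the table and 8 of the 13035 that had enough reads to be tested. RNA was measured by sequencing in 8 libraries of follicular B cells sorted from spleen, 4 in each of 2 groups. The first group, GFP-ZFP36L1, has the genotype Rosa26GFPZFP36L1 CD23cre/+ in the labels. The control group has the genotype Rosa26GFPZFP36L1, so both groups carry the Rosa26 allele and differ by a Cre recombinase driven from CD23, which is the protein of Fcer2a. ZFP36L1, the protein of the allele, binds AU-rich elements in mRNA and promotes mRNA decay. The labels give no age, sex or strain, do not say whether the Cre was inserted in the CD23 gene or added as a transgene, and are silent on whether each library is another animal. The p-values below therefore measure the spread between these libraries.

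Fc receptors bind the constant part of antibodies and link the antibody made by B cells to the behaviour of the cells that carry the receptor. Most of them belong to the immunoglobulin superfamily, and the low-affinity IgE receptor CD23 is an exception, being a C-type lectin. B cells use the IgG receptor FcγRIIB as a brake on the B cell receptor, carry a receptor for IgM, and largely lack the activating receptors of myeloid cells, which signal through the FcRγ adaptor chain. Fc receptor-like proteins are related in sequence and are mostly restricted to B cells.

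The libraries held between 38947758 and 51024233 counts. Zfp36l1 was lower in the libraries labelled GFP-ZFP36L1, at 439 ± 28.6 against 547 ± 35.1 CPM (counts scaled to a library of 1e+06) in controls (SD, n = 4 each), so the groups are called by their labels throughout. Zfp36l1 passed edgeR's quasi-likelihood test (adjusted p = 0.0348) but lost the call in 7 of 14 alternative analyses, and its counts do not tell the Rosa26 allele from the endogenous gene. Gt(ROSA)26Sor, the transcript of the locus that carries the allele, had 3.90 ± 0.603 CPM in GFP-ZFP36L1 libraries and 16.9 ± 2.58 CPM in controls, and fell (adjusted p = 4.14e-05 in the same edgeR test). GFP-ZFP36L1 replicate 4 lay farthest from the other libraries on component 1 of a principal component analysis, and GFP-ZFP36L1 replicate 1 lay within the range of the controls. Values on that component rose with replicate number in both groups, from -23.1 to -3.26 in controls and from -7.54 to 33.0 in GFP-ZFP36L1 libraries. The cells were sorted as positive for CD93, CD21 and CD23 among other markers per the labels. Cr2, the gene for CD21, had 1326 ± 108 CPM in GFP-ZFP36L1 libraries and 1255 ± 65.0 CPM in controls, and Cd93 had 11.3 ± 2.86 CPM in GFP-ZFP36L1 libraries and 10.5 ± 2.003 CPM in controls. Among markers of other lineages, Ncr1, Nkg7, Ly6g and Fcer1a had no counts in any library and Cd3e was at most 0.0487 CPM, while others were present. The 7 T cell markers summed to 33.8 to 34.7 CPM in GFP-ZFP36L1 libraries and 31.8 to 34.7 CPM in controls, nearly all of it Lck, and the 8 erythroid and platelet markers to 6.51 to 15.6 CPM in GFP-ZFP36L1 libraries and 6.82 to 19.3 CPM in controls.

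Because the Cre in this design is driven from CD23, the start region of Fcer2a is shown together with that of Fcgrt, the one of the 8 genes with the largest log2 fold change among those above 1 CPM in every library. RefSeq lists 3 start windows for Fcer2a on the minus strand of GRCm38.p6. Each window runs from 250 bases before the start to 50 after it. The outermost of them and the one that holds a STAT-type palindrome are printed 5′ to 3′ with the Fcgrt window. Capitals mark a match to TTCNNNNGAA, the letters of IL-4 response elements bound by STAT6.
Fcer2a, outermost start (chr8:3694125-3694424, minus strand): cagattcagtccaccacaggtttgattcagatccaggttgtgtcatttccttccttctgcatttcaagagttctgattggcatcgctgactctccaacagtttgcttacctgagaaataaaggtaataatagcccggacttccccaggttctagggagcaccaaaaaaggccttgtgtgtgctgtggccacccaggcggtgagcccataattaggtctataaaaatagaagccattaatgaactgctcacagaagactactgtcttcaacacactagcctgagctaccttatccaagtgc
Fcer2a, start with the palindrome (chr8:3690812-3691111, minus strand): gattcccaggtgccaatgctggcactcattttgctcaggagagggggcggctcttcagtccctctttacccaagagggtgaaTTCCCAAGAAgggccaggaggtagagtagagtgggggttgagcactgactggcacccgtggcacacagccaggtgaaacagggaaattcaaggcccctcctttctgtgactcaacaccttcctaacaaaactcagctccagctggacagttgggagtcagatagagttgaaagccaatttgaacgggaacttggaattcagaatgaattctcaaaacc
Fcgrt (chr7:45103773-45104072, minus strand): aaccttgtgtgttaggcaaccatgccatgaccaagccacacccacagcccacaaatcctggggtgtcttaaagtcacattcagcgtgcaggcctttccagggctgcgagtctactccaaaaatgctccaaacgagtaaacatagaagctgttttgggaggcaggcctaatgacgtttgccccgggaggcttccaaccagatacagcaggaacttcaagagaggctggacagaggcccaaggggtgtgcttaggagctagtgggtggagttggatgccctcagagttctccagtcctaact
The motif reads the same on both strands, so 1 search covers both. It occurred in 2 of the 10 start windows of the 8 genes, 1 of Fcer2a and 1 of Fcamr, and in 6.95% of all 32851 windows. A match describes these letters and shows no binding.

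The 3′ UTRs were searched for the letters that ZFP36-family proteins bind. The heptamer TATTTAT, the core site, was present in 0 of 8 longest 3′ UTRs annotated in GENCODE, against 27.4% of all 21173 genes with a 3′ UTR. Among genes with a 3′ UTR of similar length, within 20 percent, 23.8% held it for Fcer2a, 42.3% for Fcgr2b and 6.70% for Fcgrt. These shares were 18.5% for Fcrl1, 13.3% for Fcrla, 3.32% for Fcmr, 7.47% for Fcer1g and 1.89% for Fcamr. The shorter pentamer ATTTA, which is part of the heptamer, was searched after the heptamer was found in none of the 8. It occurred in 3 of the 8 genes, against 65.6% of all genes with a 3′ UTR. The pentamer is printed in capitals with the bases on either side, since these are the places where the searched 3′ UTRs hold the AU-rich core at all. The number after each name counts the sites from the stop codon.
Fcgr2b 3′ UTR site 1: accatctttctATTTActttttcaagg
Fcgr2b 3′ UTR site 2: ctcaggcagctATTTAagcttgctgta
Fcrl1 3′ UTR site 1: cacgaacttttATTTAcaggaggaaaa
Fcrl1 3′ UTR site 2: cttgatgcaacATTTAgactaagcttt
Fcrla 3′ UTR site 1: cctagaacagaATTTAaagagaaataa
The pentamer was absent from the searched 3′ UTRs of Fcer2a (1073 nt), Fcgrt (256 nt), Fcmr (140 nt), Fcer1g (342 nt) and Fcamr (87 nt). RefSeq ends Fcer2a at chr8:3680280, beyond its GENCODE end at chr8:3681737, and the bases between were not searched for either motif. Of genes with a 3′ UTR of similar length, 73.9% held at least 1 pentamer for Fcer2a, 31.4% for Fcgrt, 16.4% for Fcmr, 37.8% for Fcer1g and 12.4% for Fcamr. For the genes that hold the pentamer, these shares were 91.3% for Fcgr2b, 63.8% for Fcrl1 and 53.2% for Fcrla.

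The 8 genes spanned more than 3 orders of magnitude, and their order was the same in both groups. Levels between genes are compared as CPM per kb of exon, the count scaled to library size and to the length of the gene's merged exons. Fcmr, the receptor for the Fc part of IgM, was highest, at 749 ± 50.1 CPM per kb in GFP-ZFP36L1 libraries and 685 ± 14.7 in controls (SD, n = 4 each). Fcer2a followed at 392 ± 37.7 CPM per kb in GFP-ZFP36L1 libraries and 472 ± 22.5 CPM per kb in controls. In controls, Fcmr stood above 99.5% and Fcer2a above 99.3% of all tested genes on this scale. Fcrla, an intracellular relative of the Fc receptors found in B cells, had 239 ± 26.9 CPM per kb in GFP-ZFP36L1 libraries and 257 ± 17.2 in controls. Fcrl1, a surface receptor of the B lineage, had 139 ± 1.79 CPM per kb in GFP-ZFP36L1 libraries and 156 ± 4.38 CPM per kb in controls. Fcgr2b was lower at 42.2 ± 1.13 CPM per kb in GFP-ZFP36L1 libraries and 45.5 ± 1.64 CPM per kb in controls. Fcgrt, which encodes the heavy chain of the neonatal Fc receptor FcRn, had 6.53 ± 2.84 CPM per kb in GFP-ZFP36L1 libraries and 15.4 ± 1.06 CPM per kb in controls. Neighbours in this order down to Fcer1g did not overlap in either group. Fcer1g had 0.553 ± 0.138 CPM per kb in GFP-ZFP36L1 libraries and 0.668 ± 0.0798 CPM per kb in controls and Fcamr had 0.373 ± 0.117 CPM per kb in GFP-ZFP36L1 libraries and 0.209 ± 0.0501 CPM per kb in controls. Those last 2 genes overlapped in GFP-ZFP36L1 libraries, where Fcer1g started at 0.422 and Fcamr reached 0.495, but not in controls.

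**Figure D1:**
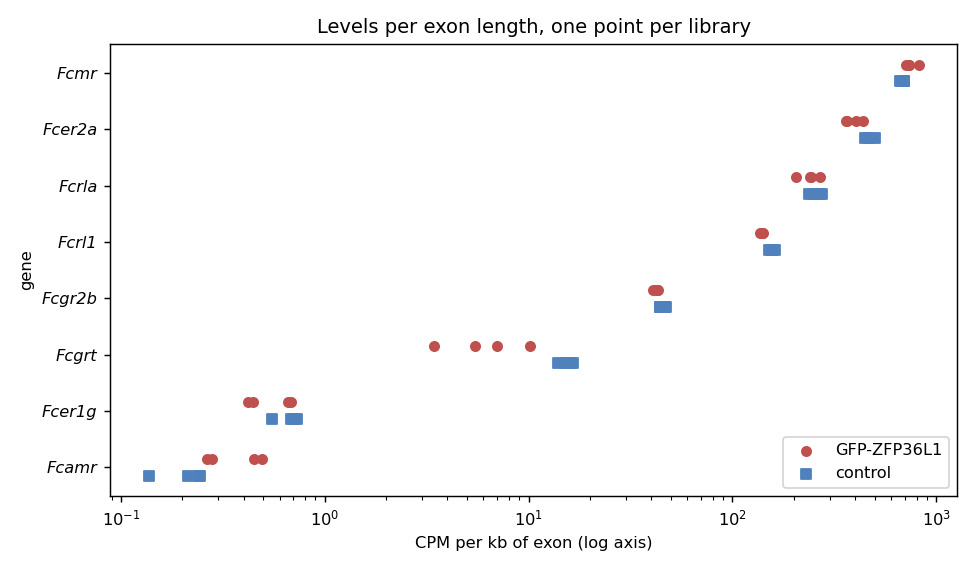
Level of each gene in CPM per kb of exon on a log axis, with 1 point per library, circles for GFP-ZFP36L1 and squares for control. Fcmr is highest in every library, and Fcgrt is the gene whose groups lie farthest apart among those above 1 CPM per kb.

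Counts of the groups were compared by edgeR's quasi-likelihood test, and p-values were adjusted by the Benjamini-Hochberg method over all 13035 genes tested, with a call at an adjusted p under 0.05. No member of the family was called: 0 of 8 passed, where 3.12% of all genes tested passed. At an unadjusted p under 0.05 there were 4 of 8, beside 17.3% of all genes. DESeq2 called 3 (Fcer2a, Fcrl1 and Fcgrt), where it called 6.63% of the genes with an adjusted p, and limma voom with quality weights called 4, these 3 and Fcamr, where it called 8.08%. In 6 of the 8 genes the levels of both groups were fully separate, beside 11.2% of all genes tested. Of these 6, Fcer2a, Fcgr2b, Fcrl1 and Fcgrt were lower in GFP-ZFP36L1 libraries, and Fcmr and Fcamr were higher. Such separation was found for 4.98% of all genes tested on the lower side and 6.23% on the higher side. The median log2 fold change of the 8 was -0.14, against -0.01 over all genes tested. The 8 genes were chosen with earlier results of these data known. The shares set beside those of all genes therefore describe the 8 and are no test of the family.

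**Figure D2:**
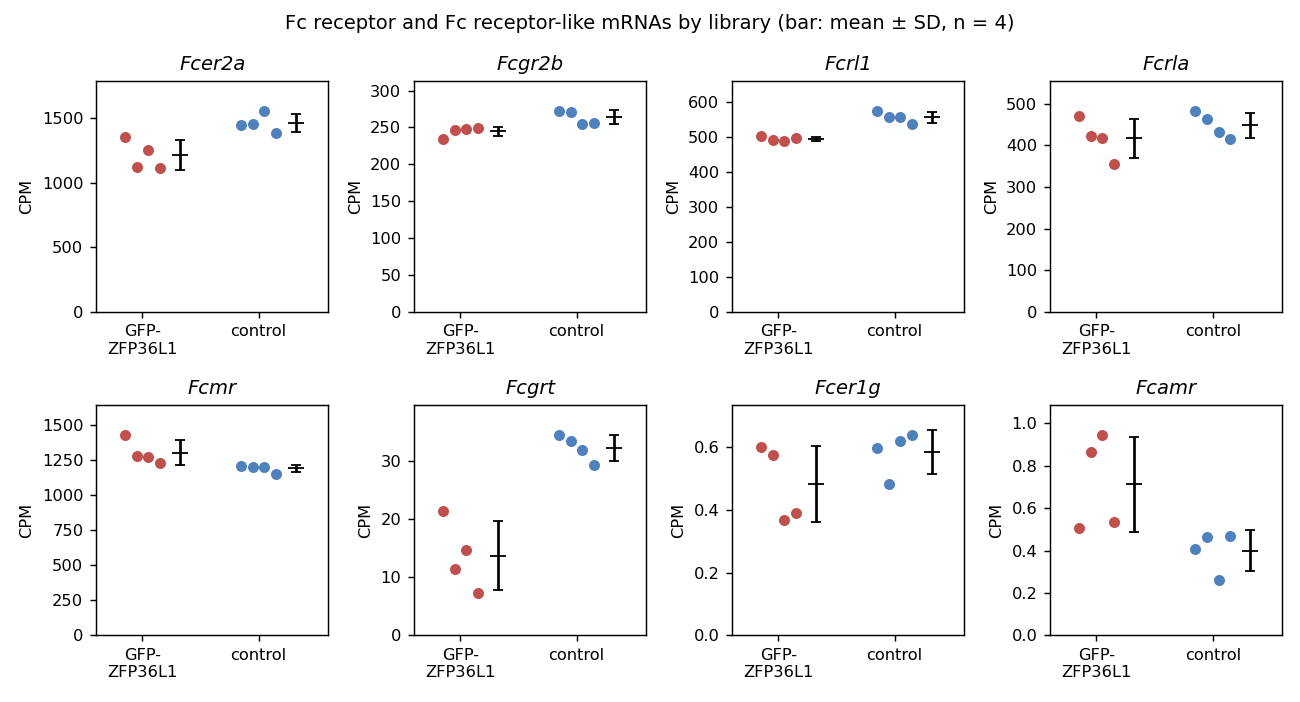
CPM of each gene in each library, with GFP-ZFP36L1 left of control, each axis starting at 0, and bars for mean ± SD of 4 libraries. The GFP-ZFP36L1 libraries of Fcgrt lie between 7.26 and 21.4 CPM, all below the controls, which lie between 29.4 and 34.6 CPM.

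Fcgrt had the largest log2 fold change of those of the 8 genes that were above 1 CPM, with a mean of 13.7 ± 5.97 CPM in GFP-ZFP36L1 libraries and 32.3 ± 2.22 CPM in controls (SD, n = 4 each). FcRn is an MHC class I-like protein that pairs with β2-microglobulin and returns IgG and albumin from endosomes to the cell surface. Fcgrt (ENSMUSG00000003420) lies at chr7:45092990-45103851 on the minus strand. It had 21.4, 11.5, 14.7 and 7.26 CPM in GFP-ZFP36L1 replicates 1 to 4, against 34.6, 33.4, 32.01 and 29.4 CPM in control replicates 1 to 4. All 4 GFP-ZFP36L1 libraries were below every control, and they were spread more widely than the controls, with replicate 4 lowest and replicate 1 closest to the controls. As a percentage of the control mean, the GFP-ZFP36L1 libraries stood at 66.3%, 35.6%, 45.5% and 22.4%. The counts behind these levels were 931, 561, 639 and 298 in GFP-ZFP36L1 libraries and 1448, 1662, 1346 and 1197 in controls. edgeR's quasi-likelihood test gave a log2 fold change of -1.24 ± 0.28 (SE; adjusted p = 0.0571). The adjusted p was 0.00589 in the same test without GFP-ZFP36L1 replicate 1 and 0.0388 without GFP-ZFP36L1 replicate 4. It was 0.00384 with DESeq2 and 0.000899 with limma voom. Its log2 fold change was negative in all 14 alternatives, from -1.52 to -1.02, and passed in 6 of them. Fcgrt shares no exon with an annotated gene, although the antisense gene Gm45669 overlaps its span by 5331 bp.

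The light chain partner of FcRn was not called. B2m, encoding β2-microglobulin, had 1890, 1767, 1682 and 1487 CPM in GFP-ZFP36L1 replicates 1 to 4, against 1781, 1679, 1588 and 1505 CPM in controls. Its groups overlapped, and edgeR's quasi-likelihood test put its log2 fold change at 0.06 ± 0.09 (SE; adjusted p = 0.788). The ratio of Fcgrt to B2m counts, formed after the values were seen, was 0.00787 ± 0.00280 in GFP-ZFP36L1 libraries and 0.0197 ± 0.000345 in controls (SD, n = 4 each). Of the 8 tested genes of the list that holds B2m and genes of endosomal recycling, 0 were called by edgeR, DESeq2 or limma voom. Over all genes with an adjusted p these called 3.12%, 6.63% and 8.08%, and 17.3% of all genes tested had an unadjusted p under 0.05. In that list 1 had an unadjusted p under 0.05, Rab11fip5, a Rab11 effector, with 2.62 ± 0.576 CPM in GFP-ZFP36L1 libraries and 1.81 ± 0.613 CPM in controls.

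Fcer2a encodes CD23, the IgE receptor used both in the sort gate and to drive the Cre. Fcer2a (ENSMUSG00000005540) lies at chr8:3681737-3694175 on the minus strand. It had 1357, 1122, 1255 and 1113 CPM in GFP-ZFP36L1 replicates 1 to 4, against 1444, 1451, 1554 and 1387 CPM in control replicates 1 to 4. Every GFP-ZFP36L1 library was below every control, and replicate 1 was again the closest to the controls. The GFP-ZFP36L1 level was 16.9% below the control level, a log2 fold change of -0.27 ± 0.08 (SE; adjusted p = 0.102, edgeR's quasi-likelihood test). Fcer2a passed in 4 of 14 alternatives. These were DESeq2 (adjusted p 0.0119), limma voom (0.0179), a linear term for the title's number (0.0269), which called 7.9% of all genes, and the fit without GFP-ZFP36L1 replicate 1 (0.0225), which called 7.19%. Set against the other gated receptor, the ratio of Fcer2a to Cr2, likewise formed afterwards, was 0.920 ± 0.135 in GFP-ZFP36L1 libraries and 1.16 ± 0.0551 in controls (SD, n = 4 each). In these bulk samples, fewer cells with a given RNA and less of that RNA per cell cannot be told apart.

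Markers of follicular B cells were set beside Fcer2a. The summed level of the 6 follicular markers, which include Fcer2a, was 5391 to 6620 CPM in GFP-ZFP36L1 libraries and 7501 to 7696 CPM in controls. Beside 3.12% of all genes tested that edgeR called, 3 of the 6 fell and 0 rose. Those that fell included Cd55, a complement regulator, and Ighd, the IgD heavy chain gene. Cd55 had 581 ± 53.6 CPM in GFP-ZFP36L1 libraries and 808 ± 40.1 CPM in controls and kept its call in all 14 alternatives, while Ighd lost it in 7. The other 3, Fcer2a among them, did not pass with edgeR. DESeq2 called 4 of the 6 and limma voom 4, beside 6.63% and 8.08% of all genes with an adjusted p. An unadjusted p under 0.05 in edgeR was found for all 6, and 5 had no overlap between the groups, beside 11.2% of all genes tested. The summed level of 6 marginal zone markers was 1651 to 1986 CPM in GFP-ZFP36L1 libraries and 1632 to 1803 CPM in controls. Of these 6, 0 were called by edgeR, 1 by DESeq2 and 1 by limma voom. At an unadjusted p under 0.05 there were 2, beside 17.3% of all genes tested. Cr2 made up most of that sum. The 2 were S1pr3, a sphingosine-1-phosphate receptor, with 13.3 ± 4.12 CPM in GFP-ZFP36L1 libraries and 7.09 ± 1.62 CPM in controls (adjusted p = 0.0539 in the same edgeR test), and Dtx1, a Notch target gene, with 198 ± 24.5 CPM in GFP-ZFP36L1 libraries and 160.4 ± 17.6 CPM in controls (adjusted p = 0.133). The B cell markers shared by all B cells summed to 9248 to 10590 CPM in GFP-ZFP36L1 libraries and 10489 to 11332 CPM in controls. Cd93, a gene of the sort gate, belongs to the list of transitional B cell markers. Of that list's 5 tested genes, 0 were called by edgeR, 2 by DESeq2 and 2 by limma voom. At an unadjusted p under 0.05 there were 3, beside 17.3% of all genes tested. Of these, Vpreb3 and Sox4 were lower and Myb was higher in GFP-ZFP36L1 libraries. The part of these marker differences in the result for Fcer2a was not tested.

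The surroundings of Fcer2a on chromosome 8 were examined because the Cre is driven from CD23. Within 200 kb there were 27 other annotated genes, of which 24 were in the table and 9 had enough reads to be tested. Trappc5, part of the TRAPP complex of vesicle traffic, was the 1 neighbour that rose, at 99.2 ± 9.20 CPM in GFP-ZFP36L1 libraries and 66.6 ± 4.09 CPM in controls. It lies 482 bp beyond the 3′ end of Fcer2a in GENCODE and on the opposite strand. In RefSeq the 2 genes share 642 bp, from chr8:3680280 to 3680921, so without the strand setting of the counting their reads cannot be told apart there. The other 8 tested neighbours were not called, where edgeR called 3.12% of all genes tested. Stxbp2, a regulator of vesicle fusion, had 179 ± 12.6 CPM in GFP-ZFP36L1 libraries and 170 ± 11.8 CPM in controls. Zfp358, a zinc finger gene, had 9.91 ± 0.793 CPM in GFP-ZFP36L1 libraries and 7.78 ± 0.882 CPM in controls, and its groups did not overlap. Cd209a, a C-type lectin gene on the far side, had 0.826 ± 0.313 CPM in GFP-ZFP36L1 libraries and 0.992 ± 0.2002 CPM in controls. The median log2 fold change of the 9 was -0.003.

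**Figure D3:**
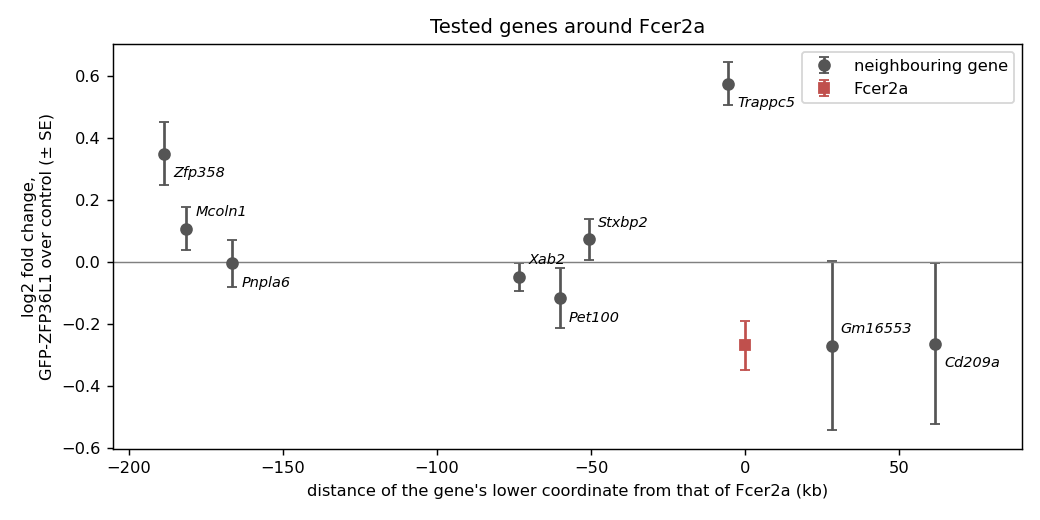
Log2 fold change of GFP-ZFP36L1 over control (± SE) for Fcer2a and its 9 tested neighbours, by distance in kb from Fcer2a. Trappc5, at 0.58, stands above the other genes, and Fcer2a lies at -0.27.

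Genes that act on CD23 were described next. Interleukin 4 induces CD23 through a receptor made of Il4ra and Il2rg and the factor STAT6, and ADAM10 cleaves CD23 from the cell surface. Of 10 genes in this list, 1 fell, 0 rose and 9 did not pass, where edgeR called 3.12% of all genes tested. DESeq2 called 3 and limma voom 3, beside 6.63% and 8.08% of all genes with an adjusted p. An unadjusted p under 0.05 in edgeR was found for 4, beside 17.3% of all genes tested. The one that fell was Pax5, the factor that maintains B cell identity. Pax5 had 210 ± 6.81 CPM in GFP-ZFP36L1 libraries and 244.5 ± 8.05 CPM in controls, a log2 fold change of -0.22 ± 0.05 (SE; adjusted p = 0.0405, edgeR's quasi-likelihood test). That call was lost in 6 of 14 alternatives, with an adjusted p of up to 0.145. Il4ra had 415, 355, 347 and 313 CPM in GFP-ZFP36L1 replicates 1 to 4, against 454, 441, 423 and 419 CPM in controls, without overlap and with an adjusted p of 0.087 in the same edgeR test. Notch2, a receptor that directs B cells to the marginal zone, had 521 ± 16.2 CPM in GFP-ZFP36L1 libraries and 615 ± 66.3 CPM in controls. Adam10 had 166 ± 10.2 CPM in GFP-ZFP36L1 libraries and 153 ± 2.46 CPM in controls, an adjusted p of 0.276 in the same edgeR test. Stat6 had 361 ± 20.7 CPM in GFP-ZFP36L1 libraries and 357 ± 9.77 CPM in controls.

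The 5 genes most like Fcer2a in their levels across the 8 libraries were Limd2, Trappc6b, Dstn, Cnn3 and Icam2. Likeness was the root mean square difference in log2 CPM after each gene was centred on its mean, over 9496 genes of at least 5 CPM. It was 0.0486 for Limd2, 0.0515 for Trappc6b, 0.0525 for Dstn, 0.0545 for Cnn3 and 0.0545 for Icam2, and the median over all genes was 0.18. Technical traits of the libraries were not separated from it, so the likeness is a description. Icam2, an adhesion ligand of leukocyte integrins, had 92.7 ± 9.75 CPM in GFP-ZFP36L1 libraries and 113.0 ± 3.44 CPM in controls.

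Fcgr2b encodes FcγRIIB, the inhibitory IgG receptor, whose cytoplasmic inhibitory motif recruits the phosphatase SHIP1. Fcgr2b (ENSMUSG00000026656) lies at chr1:170958617-170976547 on the minus strand. It had 235, 247, 248 and 249 CPM in GFP-ZFP36L1 replicates 1 to 4, against 272, 271, 255 and 255 CPM in control replicates 1 to 4. The groups did not overlap, but the highest GFP-ZFP36L1 library, at 248.9 CPM, was close to the lowest control, at 255.3 CPM. In edgeR's quasi-likelihood test the log2 fold change was -0.11 ± 0.05 (SE; adjusted p = 0.302), and Fcgr2b passed in 0 of 14 alternatives. Of 3405 distinct stretches of 100 bases in its longest transcript, 82 also occur in transcripts of other genes, Fcgr3 among them, so a small part of its reads is uncertain. The antisense gene Gm38204 shares 155 exonic bases with it.

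None of the genes for signalling proteins downstream of such inhibitory motifs was called. Of the 9 genes of that list, 0 passed with edgeR, DESeq2 or limma voom, beside 3.12%, 6.63% and 8.08% of all genes with an adjusted p. At an unadjusted p under 0.05 there was 1, beside 17.3% of all genes tested. Inpp5d, the gene for SHIP1, had 369.9 ± 21.05 CPM in GFP-ZFP36L1 libraries and 370.7 ± 7.17 CPM in controls. Dok3, an adaptor of inhibitory signals, had 425.5 ± 15.5 CPM in GFP-ZFP36L1 libraries and 388.5 ± 21.4 CPM in controls, and Csk, a kinase that restrains Src-family kinases, 558 ± 40.6 CPM in GFP-ZFP36L1 libraries and 615 ± 23.0 CPM in controls. Ptpn6, the gene for the phosphatase SHP-1, had 1048 ± 89.7 CPM in GFP-ZFP36L1 libraries and 1128 ± 63.3 CPM in controls.

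Where edgeR called 3.12% of all genes tested, 1 of 8 tested genes among other inhibitory receptors of B cells fell and 0 rose. It was Pecam1, an adhesion receptor with inhibitory motifs, which had 241, 214, 248 and 231 CPM in GFP-ZFP36L1 replicates 1 to 4, against 266, 289, 284 and 273 CPM in controls. The log2 difference was -0.25 ± 0.06 (SE; adjusted p = 0.0451, edgeR's quasi-likelihood test), and the call was lost in 7 of 14 alternatives. Cd22, a sialic acid-binding brake on the B cell receptor, had 1771 ± 67.6 CPM in GFP-ZFP36L1 libraries and 2079 ± 76.9 CPM in controls, without overlap and with an adjusted p of 0.0934 in the same edgeR test. Btla, an inhibitory receptor of lymphocytes, had 703 ± 69.0 CPM in GFP-ZFP36L1 libraries and 835 ± 102 CPM in controls, and Lair1, an inhibitory collagen receptor, had 1.95 ± 0.227 CPM in GFP-ZFP36L1 libraries and 1.45 ± 0.274 CPM in controls. The list's median log2 fold change was -0.22, against -0.01 over all genes tested. DESeq2 called 2 of its genes and limma voom 3, beside 6.63% and 8.08% of all genes with an adjusted p. An unadjusted p under 0.05 in edgeR was found for 5, beside 17.3% of all genes tested.

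**Figure D4:**
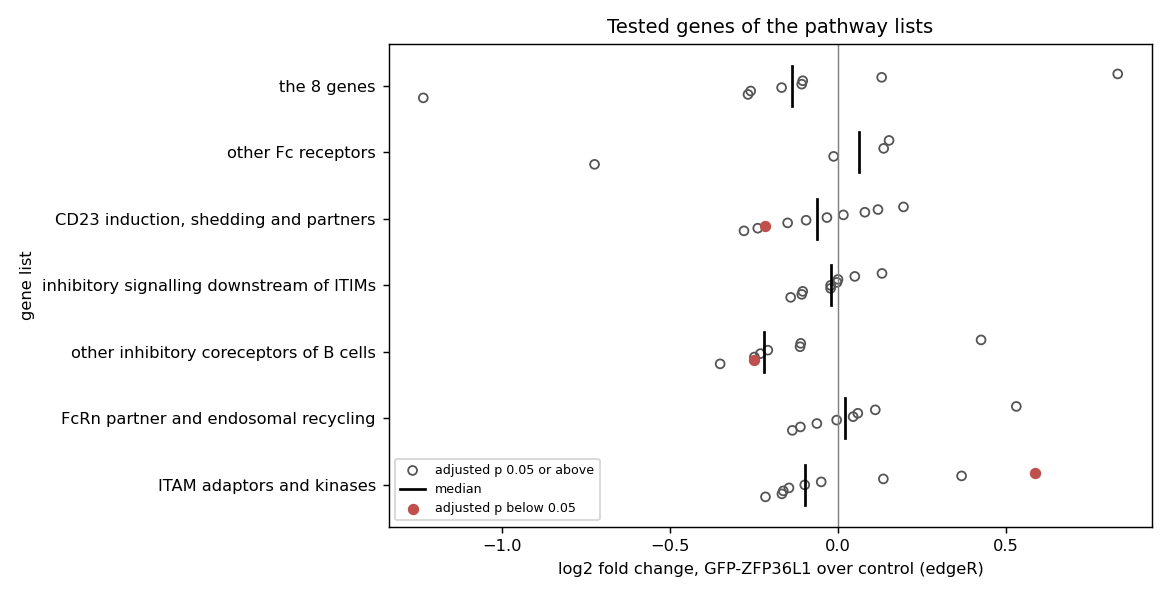
Log2 fold change of GFP-ZFP36L1 over control for the 8 genes and for the tested genes of each pathway list, with filled points below an adjusted p of 0.05 and a bar at the median. Filled points are Pax5, Pecam1 and Tyrobp, and Fcgrt and Fcamr are the outermost genes of the family.

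Fcrl1 and Fcrla, the Fc receptor-like members, lay on chromosomes 3 and 1. Fcrl1 (ENSMUSG00000059994, chr3:87376387-87402934, plus strand) had 501, 492, 486 and 497 CPM in GFP-ZFP36L1 replicates 1 to 4. Its control replicates 1 to 4 had 573, 555, 557 and 535 CPM. The groups did not overlap, with means of 494 ± 6.38 CPM in GFP-ZFP36L1 libraries and 555 ± 15.6 CPM in controls (SD, n = 4 each). By edgeR's quasi-likelihood test the log2 fold change was -0.17 ± 0.05 (SE; adjusted p = 0.121). Fcrl1 passed with DESeq2 (adjusted p 0.00227), limma voom (0.0306) and the title number as a linear term (0.0457), and in 0 of the 8 fits that left out 1 library. Fcrla (ENSMUSG00000038421, chr1:170917576-170927583, minus strand) had 470, 422, 419 and 356 CPM in GFP-ZFP36L1 replicates 1 to 4, against 482, 463, 431 and 416 CPM in controls. Here the groups overlapped. Its log2 fold change was -0.10 ± 0.08 (SE), adjusted p 0.576 in the same edgeR test, and it was -0.03 without GFP-ZFP36L1 replicate 4.

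Fcmr was the abundant member whose level lay in the other direction. The IgM receptor it encodes binds secreted IgM and is highly expressed by B cells. Fcmr (ENSMUSG00000042474, chr1:130865669-130880791, plus strand) had 1427, 1275, 1270.1 and 1229.6 CPM in GFP-ZFP36L1 replicates 1 to 4, against 1207, 1198, 1199 and 1151 CPM in control replicates 1 to 4. All GFP-ZFP36L1 libraries were above all controls, with replicate 1 the highest. edgeR's quasi-likelihood test gave 0.13 ± 0.07 (SE) as the log2 fold change (adjusted p = 0.36), and Fcmr passed in 0 of 14 alternatives. The ratio of Fcmr to Fcer2a counts, formed after the values were seen, was 1.05, 1.14, 1.01 and 1.105 in GFP-ZFP36L1 replicates 1 to 4 and 0.835, 0.825, 0.772 and 0.8297 in control replicates 1 to 4.

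Fcamr and Fcer1g were near the limit of detection. Fcamr, a receptor for IgA and IgM, lies on chromosome 1 like Fcmr (ENSMUSG00000026415, chr1:130800902-130814740, plus strand). Fcamr had 22, 42, 41 and 22 counts in GFP-ZFP36L1 replicates 1 to 4. Its control replicates 1 to 4 had 17, 23, 11 and 19 counts. As CPM these were 0.506, 0.862, 0.945 and 0.536 in GFP-ZFP36L1 libraries, against 0.406, 0.462, 0.262 and 0.467 in controls, without overlap. The edgeR log2 fold change was 0.83 ± 0.28 (SE; adjusted p = 0.141), and of 13 alternatives limma voom alone passed it, at an adjusted p of 0.0287. Fcamr was not tested under a filter of 1 CPM, which it did not reach.

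Fcer1g, encoding the FcRγ adaptor chain, had 26, 28, 16 and 16 counts in GFP-ZFP36L1 replicates 1 to 4 and 25, 24, 26 and 26 counts in control replicates 1 to 4. It lies at chr1:171229572-171234365 on the minus strand (ENSMUSG00000058715). Its groups overlapped, and edgeR put the log2 fold change at -0.26 ± 0.24 (SE; adjusted p = 0.632). The activating receptors that need the chain were near 0: Fcgr3 was at most 0.146 CPM, Fcgr4 at most 0.147 CPM and Fcgr1 at most 0.143 CPM in any library.

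Myeloid markers were set beside Fcer1g. The 12 macrophage and monocyte markers summed to 68.6 to 100.2 CPM in GFP-ZFP36L1 libraries and 61.6 to 66.6 CPM in controls, and Tyrobp and Mpeg1 made up most of that. Of the 12, 2 rose, Tyrobp and Itgam, 0 fell, 6 did not pass and 4 were too low to test. Over all genes tested 3.12% were called, and Itgam lost its call in 7 of 14 alternatives. Adgre1, the gene for F4/80, lay the other way, with 1.73 ± 0.649 CPM in GFP-ZFP36L1 libraries and 3.21 ± 0.574 CPM in controls, without overlap and not called (adjusted p = 0.0815 in the same edgeR test). Cd68 had 3.30 ± 0.578 CPM in GFP-ZFP36L1 libraries and 4.0997 ± 0.638 CPM in controls. Cd14, C1qa, C1qb, C1qc, Csf1r and Lyz2 were below 1 CPM in every library. Neutrophil markers summed to 0.207 to 0.328 CPM in GFP-ZFP36L1 libraries and 0.0716 to 0.196 CPM in controls, and mast cell and basophil markers to 0 to 0.138 CPM in GFP-ZFP36L1 libraries and 0.0402 to 0.196 CPM in controls. NK cell markers summed to 0.287 to 0.483 CPM in GFP-ZFP36L1 libraries and 0.141 to 0.358 CPM in controls. Their part in the level of Fcer1g was not tested.

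Tyrobp encodes the adaptor DAP12, which carries the same kind of activating motif as FcRγ. Tyrobp was the 1 gene called among 9 genes of such adaptors and their kinases, where 3.12% of all genes tested were called. It had 30.3, 34.6, 33.8 and 31.4 CPM in GFP-ZFP36L1 replicates 1 to 4, against 23.7, 21.6, 21.3 and 19.9 CPM in controls, with no overlap. With edgeR's quasi-likelihood test its log2 fold change was 0.59 ± 0.07 (SE; adjusted p = 0.00225), and the call held in all 14 alternatives. Cd79b, a signalling chain of the B cell receptor, had 1533 ± 175 CPM in GFP-ZFP36L1 libraries and 1780 ± 144 CPM in controls. Blnk, an adaptor downstream of the B cell receptor, had 364 ± 18.7 CPM in GFP-ZFP36L1 libraries and 403 ± 24.7 CPM in controls. Plcg2, a phospholipase of the same pathway, had 408 ± 47.0 CPM in GFP-ZFP36L1 libraries and 458 ± 13.4 CPM in controls. These 3 did not pass with edgeR. Of the 9 genes, DESeq2 called 1 and limma voom 2, beside 6.63% and 8.08% of all genes with an adjusted p. An unadjusted p under 0.05 in edgeR was found for 3, beside 17.3% of all genes tested.

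The remaining Fc receptors were mostly silent in these cells. Of 11 genes, 7 were too low to test and 0 of the other 4 were called by edgeR or DESeq2, while 2 had an unadjusted p under 0.05 and limma voom called 1. Over all genes tested, 17.3% had an unadjusted p under 0.05 and limma voom called 8.08%. Fcrlb, an intracellular relative of Fcrla, had 0.368, 0.595, 0.599 and 0.511 CPM in GFP-ZFP36L1 replicates 1 to 4 and 0.883, 0.643, 0.904 and 1.03 CPM in control replicates 1 to 4. Trim21, a cytosolic receptor for antibody, had 63.4 ± 2.44 CPM in GFP-ZFP36L1 libraries and 57.1 ± 2.73 CPM in controls. Both genes had no overlap between the groups, with adjusted p of 0.12 and 0.141 by edgeR's quasi-likelihood test. Fcrl5, which in mice marks marginal zone and B-1 cells, had 26.1 ± 3.56 CPM in GFP-ZFP36L1 libraries and 23.8 ± 2.04 CPM in controls, and Pigr, the transporter of polymeric IgA and IgM, 3.32 ± 0.556 CPM in GFP-ZFP36L1 libraries and 3.35 ± 0.238 CPM in controls.

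The authors' deposited table has the same direction for all 8 genes. In the authors' deposited table Fcrl1, Fcgrt and Fcer2a passed, with adjusted p of 0.00253, 0.00456 and 0.0121 and log2 fold changes of -0.16, -0.42 and -0.24, beside 6.63% of the genes given an adjusted p there. The log2 values of Fcgrt, Fcamr (0.26) and Fcer1g (-0.09) in the authors' deposited table are smaller in size than the -1.24, 0.83 and -0.26 computed here, while those of Fcer2a and Fcrl1 are close. In place of edgeR, DESeq2 as run here gave -1.234 for Fcgrt, 0.838 for Fcamr and -0.262 for Fcer1g. Its adjusted p for Fcgrt was 0.00384. The submitters' notes name another release of DESeq2 than the one run here. Whether both releases report log2 values on the same scale was not tested, nor was the reason for the smaller values.

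**Figure D5:**
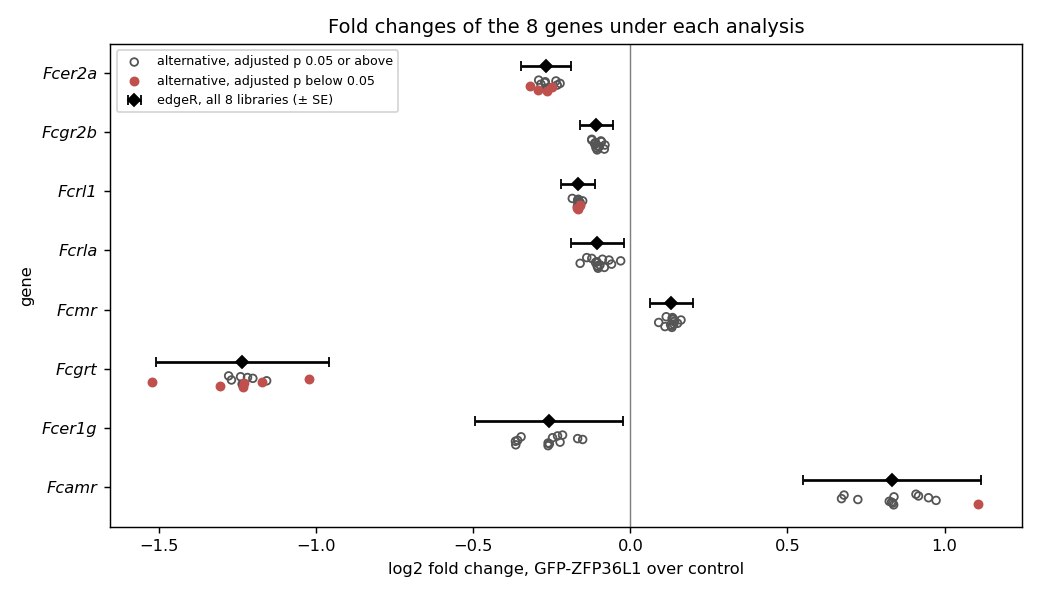
Log2 fold change of GFP-ZFP36L1 over control for each gene, with a diamond and SE for edgeR on all 8 libraries and circles for the alternatives, filled where the adjusted p was below 0.05. Filled circles occur for Fcer2a, Fcrl1, Fcgrt and Fcamr, and each gene keeps its sign in every alternative.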

How the data were processed

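The authors deposited raw counts per Ensembl gene for 8 libraries, and all tests used these counts. The authors also deposited normalized values, a signal equal to the raw count divided by 1 constant per library (checked to 4.97e-10), which served only for that check. The authors' deposited comparison table gives log2 fold changes and p-values. Trim Galore, TopHat2 2.0.12, HTSeq, DESeq2 1.10.1 and GRCm38 are named in the submitters' processing notes. The strand setting and the treatment of reads that map to several places are not given in the sources used here. Libraries were made with a stranded kit per the labels' protocols.

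All 8 count columns were matched by sample title, and 0 value columns were left over. Gene symbols, coordinates, exons and stop codons were read from GENCODE release M21 (GRCm38), with symbols for 42548 of 43629 identifiers, and start windows from RefSeq (GRCm38.p6). All 8 genes matched a start window. In R 4.3.3, edgeR 4.0.16 was run with filterByExpr, TMM factors, robust quasi-likelihood dispersion and group as the sole term. CPM used TMM-scaled library sizes. SEs came from the F statistic. The scripts were tested on simulated data. Alternatives were DESeq2 1.42.0, voom in limma 3.58.1, RLE factors, other filters, the title number as a term, and each library left out. Replicate numbers follow accession order, and the labels give no pairing of libraries between the groups.

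The 8 genes and all gene lists were chosen with earlier results of these data known, and the lists were described by counts and medians, with no set test. Named genes were the 8, the check and gate genes, tested neighbours of Fcer2a, up to 4 genes of smallest p per list, and the 5 genes most like Fcer2a. Tyrobp, Pax5 and Cd22 each belong to more than 1 list, B2m, Stat6 and Inpp5d were named for their roles after their values were seen, and Lilrb4a had no match in the table. One gene of the follicular marker list is not reported here by name.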

Additional observations from a re-analysis of the deposited data

Results flagged for a closer look

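Among 16 sets of 4 libraries (8 genes in 2 groups), 2 held a library set apart from the other 3, and chance flags about 1 set in 20. Fcgr2b had 234.8 CPM in GFP-ZFP36L1 replicate 1, while the other GFP-ZFP36L1 libraries lay between 246.9 and 248.9 CPM. Fcmr had 1150.8 CPM in control replicate 4, while the other controls lay between 1198 and 1207 CPM.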

How the results depend on the processing

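All 8 genes kept the sign of their log2 fold change in every alternative run. So did Zfp36l1, Gt(ROSA)26Sor, Trappc5, Pax5, Pecam1, Tyrobp, Cd55, Ighd and Itgam. Signs of the other genes named in the report were not compared across the alternatives. Calls were gained by Fcer2a with DESeq2 (-0.266), limma voom (-0.293) and the title number as a linear term (-0.25), and by Fcrl1 in the same 3 fits (-0.166, -0.17 and -0.159). Fcgrt gained a call in these fits (-1.234, -1.307 and -1.172) and under a filter of 1 CPM in 4 libraries (-1.229), and Fcamr with limma voom (1.106). That filter gives no value for Fcer1g and Fcamr. The causes were not tested. With 1 library left out, Fcer2a ranged from -0.319 (without GFP-ZFP36L1 replicate 1, the 1 such fit that called it) to -0.224, and Fcgrt from -1.524 (without GFP-ZFP36L1 replicate 1) to -1.023 (without GFP-ZFP36L1 replicate 4), the 2 fits that called it. Calls over all genes numbered 407, against 875 with DESeq2, 1053 with limma voom, 1030 with the title number and 79 (without control replicate 3) to 948 (without GFP-ZFP36L1 replicate 1) with 1 library left out. Of the 8 genes, 0 were called, against 3, 4 and 3 in the first 3 of these fits, 1 under the 1 CPM filter, and 0 to 2 with 1 library left out. In the pathway lists 3 genes were called, against 6, 9 and 9, and 1 to 5 with 1 library left out. Of the neighbours of Fcer2a 1 was called, against 2 with DESeq2 and 2 with the title number, and 1 to 2 with 1 library left out. RLE factors and no filter moved none of these counts by over 1.5 times. Levels of Fcamr and Fcer1g rest on at most 42 counts in a library, which limits their precision. No paired analysis was possible because the labels give no replicate numbers shared between the groups.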
